A study of Caenorhabditis elegans with 6 samples.

Results

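Messenger RNA of 9 regulators of lifespan was followed in adult Caenorhabditis elegans raised with tyrosol or without it. The 9 genes were taken by name, with earlier results of these data already known. They were the transcription factor genes daf-16, hsf-1, skn-1, pqm-1 and pha-4, the cofactor genes smk-1 and hcf-1, the deacetylase gene sir-2.1 and the kinase gene aak-2. All 9 were measured, among 17118 genes in all, on 20 of the 22548 probe sets tested. A probe set is a group of short probes read as 1 value, and where several name the same gene the brightest of them, by its mean level over the 6 arrays, stands for the gene and is called its main probe set.

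The tyrosol group held 3 arrays of worms grown on 250 µM tyrosol, a phenolic alcohol of olive oil added in ethanol, and the control group 3 arrays of worms grown on the vehicle. All worms carried fer-15(b26), a temperature-sensitive sterile mutation, were exposed from the egg, lived at 25 °C with 0.1% ethanol in the agar, and were taken on day 4 of adulthood. RNA was extracted from whole worms of this 1 strain, so fewer cells of a type and less RNA per cell cannot be told apart. The labels number the arrays as replicates without naming separate cultures, and p-values therefore measure the spread between these arrays, which may be technical.

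These proteins sit where nutrient and stress signals meet the genome. The insulin-like receptor DAF-2 acts through kinases that phosphorylate DAF-16, a FOXO factor, and keep it in the cytoplasm; PQM-1, a zinc finger protein, enters the nucleus when DAF-16 leaves it. SMK-1 and HCF-1 work with DAF-16, the first as a partner in its activity and the second as a repressor, and SIR-2.1 and AAK-2 sense the energy state through NAD and AMP. HSF-1 switches on chaperones, SKN-1 (the worm relative of Nrf) switches on detoxification, and PHA-4, a FoxA factor, builds the pharynx in the embryo and is needed for the long life of worms on restricted food. Much of their control lies in protein location, phosphorylation and turnover, which an array does not read.

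At the level of messenger RNA, 0 of the 9 genes passed the test. The main test was the rank product, which the study's design text names: the probe sets are ranked by each of the 9 differences between a tyrosol and a control array, and a probe set counts as called where the estimated false discovery rate is below 0.05. It called 0.888% of all genes (0.865% higher and 0.0234% lower) and 0.954% of all probe sets. In simulated data whose spreads differed between probe sets, it called more unchanged probe sets than this threshold allows. The moderated test of limma, which gives the standard errors and intervals below, called 0 of the 9 as well, beside 0.351% of all genes and 0.337% of all probe sets at an adjusted p under 0.05. With the replicate number as a block limma again called 0 of the 9, beside 0.73% of all genes. The rank product and limma, with and without the block, called 0 of the 20 probe sets. At an unadjusted limma p under 0.05 there was 1 of the 9 genes, smk-1, beside 7.21% of all genes, and 2 of the 20 probe sets, beside 7.33% of all probe sets.

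Differences between tyrosol and control worms ran from -0.19 to 0.33 on the log2 scale over the 9 main probe sets, with a median of 0.11 against -0.017 over all genes. There were 6 above 0 and 3 below. The 3 tyrosol values lay apart from the 3 control values for 1 of the 9 genes, smk-1, beside 13.7% of all genes (6.92% with tyrosol higher and 6.78% with tyrosol lower). Over the 95% intervals of limma the widest bound was a 1.51-fold rise (smk-1) and the lowest a level of 0.654 of the control (hsf-1). The smallest difference that the rank product called in either direction, over all probe sets, was 0.51 on the log2 scale.

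**Figure D1:**
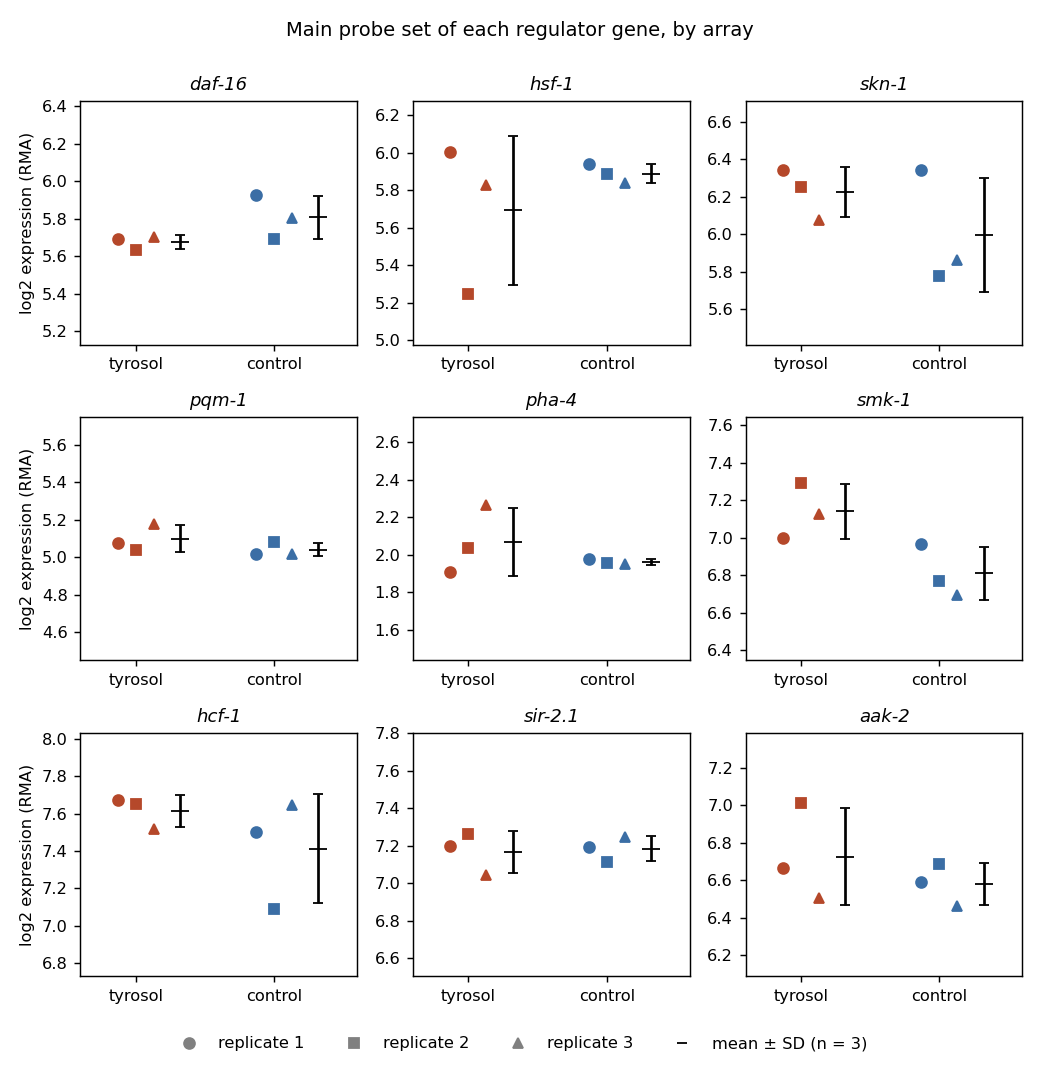
Log2 expression (vertical axis, RMA values) of the main probe set of each of the 9 genes on the 3 tyrosol arrays (left in each panel) and the 3 control arrays (right); symbols mark the replicate number, bars the mean ± SD, and every panel spans the same 1.3 log2 units. The groups lie apart for smk-1 alone, and hsf-1 has 1 low tyrosol array at 5.25. Levels are not comparable between panels.

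Tyrosol replicate 2 stood apart from the other arrays, and this touches several of the genes. Its poly-A control transcripts, bacterial sequences of which probe sets read the 3' end and the middle, showed a 3' excess of 1.28 on the log2 scale, against 0.70 and 0.78 on tyrosol arrays 1 and 3 and 0.65 to 0.83 on the control arrays. Its values also deviated more from the mean of the other arrays in its group, with an SD of 0.32 against 0.22 and 0.23 in the tyrosol group and 0.17 to 0.23 in the control group. Between the groups, sperm markers stood out: the rank product called 23 of 36 higher and limma 8, with a list mean of 0.92 to 1.01 on the tyrosol arrays, against -0.24 to 0.38 on the control arrays (log2, relative to the control mean). All of the called sperm genes except ssp-16 were read on probe sets that may hybridise with other sequences. The part of sperm in the values of the 9 genes was not tested.

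The gene with the largest difference was smk-1, whose product is related to a regulatory subunit of protein phosphatase 4 and is needed for the effect of DAF-16 on lifespan. It read 7.00, 7.29 and 7.13 in tyrosol worms 1, 2 and 3, against 6.97, 6.77 and 6.70 in control worms, all log2. All tyrosol values were above all control values, the nearest by a small margin between tyrosol replicate 1 and control replicate 1. The mean was 7.14 ± 0.15 in tyrosol worms and 6.81 ± 0.14 in control worms (SD, n = 3 each), a difference of 0.33 (SE 0.12), or 1.26-fold with a 95% interval of 1.04-fold to 1.51-fold. It did not pass (rank product false discovery rate 0.60, limma adjusted p = 0.54, exact permutation p = 0.1, two-sided, which is the lowest p possible with 3 arrays a group). Of all genes 96.7% had a difference at or below this one.

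The other probe sets of smk-1 did not read higher. Probe set 180300_at read 4.13, 3.45 and 3.87 in tyrosol worms and 3.87, 3.71 and 3.92 in control worms, a difference of -0.014 (SE 0.17). Probe set 181218_at, whose mean lies below the median of all probe sets, read 2.41, 2.00 and 2.03 in tyrosol worms and 2.29, 2.36 and 2.42 in control worms, a difference of -0.21 (SE 0.13). Tyrosol replicate 2 was the highest tyrosol array on the main probe set and the lowest on both others. Without it the main probe set differed by 0.25 (SE 0.12) and 180300_at by 0.17 (SE 0.12), while 181218_at differed by -0.14 (SE 0.13), on the other side of 0.

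The catalytic partners of SMK-1 in the phosphatase 4 complex read lower on the array that stood apart. The gene pph-4.1 read 5.63, 4.63 and 5.54 in tyrosol worms and 5.65, 5.56 and 5.79 in control worms, with overlapping groups and a difference of -0.40 (SE 0.24). Its close relative pph-4.2 read 6.90, 6.05 and 6.82 in tyrosol worms and 7.19, 7.09 and 7.22 in control worms, with every tyrosol value below every control value and a difference of -0.58 (SE 0.21, limma adjusted p = 0.55). Tyrosol replicate 2 was the lowest array for both. Without it the differences were -0.084 and -0.31.

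For daf-16 the tyrosol values sat at the lower edge of the control values. The main probe set read 5.69, 5.63 and 5.70 in tyrosol worms and 5.93, 5.69 and 5.81 in control worms. Control replicate 2 lay within the tyrosol range, so the groups overlapped. The mean was 5.67 ± 0.037 in tyrosol worms and 5.81 ± 0.12 in control worms (SD, n = 3 each), a difference of -0.13 (SE 0.096), or 0.912-fold with a 95% interval of 0.783 to 1.06 (limma adjusted p = 0.82). Probe set 175678_at, the only one of the 4 whose name carries no mark of sharing between transcripts or genes, read 5.08, 5.17 and 5.23 in tyrosol worms and 5.15, 5.16 and 5.07 in control worms, a difference of 0.032 (SE 0.089). The probe set 188176_s_at read 4.58, 3.73 and 4.79 in tyrosol worms and 4.56, 4.53 and 4.74 in control worms. It was low on tyrosol replicate 2 alone, and its difference of -0.24 (SE 0.25) became 0.077 without that array. The fourth, 181992_s_at, lies below the median of all probe sets and differed by -0.14 (SE 0.19), or -0.049 without that array. Transcript forms of daf-16 that these probe sets may read apart are not annotated in the files.

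Around DAF-16, 24 of 26 listed genes of the insulin pathway and its partners were measured, 3 of them among the 9 regulators. The rank product and limma called 0 of the 24, 1 was higher and 1 lower at an unadjusted limma p under 0.05, and the list's median difference was 0.055 against -0.017 for all genes. The lowest of those at or above the median level was pptr-1, a phosphatase 2A subunit that acts on the kinase AKT-1. It read 4.85, 4.72 and 4.85 in tyrosol worms and 5.37, 5.04 and 5.22 in control worms, with all tyrosol values lower and a difference of -0.41 (SE 0.11, limma adjusted p = 0.33). The 14-3-3 proteins FTT-2 and PAR-5 hold phosphorylated DAF-16 in the cytoplasm. ftt-2, read on a probe set that may hybridise with other sequences, averaged 8.90 ± 0.050 in tyrosol worms and 8.74 ± 0.11 in control worms with separate groups and a difference of 0.17 (SE 0.095), and par-5 differed by 0.035 (SE 0.098), or 0.067 without tyrosol replicate 2.

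Of 29 measured genes that DAF-16 is known to raise, 13 lay above 0 and 16 below, with a median of -0.022. The rank product and limma called 0. At an unadjusted limma p under 0.05, 4 were higher and 0 lower, beside 7.21% of all genes in either direction. These 4, all with separate groups, were the small heat-shock genes hsp-16.2, the highest of the list at 0.66 (SE 0.24), hsp-16.41 at 0.52 (SE 0.12, limma adjusted p = 0.18) and hsp-12.3 at 0.43 (SE 0.11, limma adjusted p = 0.30), and dod-6 at 0.37 (SE 0.15, limma adjusted p = 0.62). Without tyrosol replicate 2 the differences were 0.35 for hsp-16.2, 0.40 for hsp-16.41, 0.45 for hsp-12.3 and 0.23 for dod-6. The last 3 of these genes were named after their values were seen. dod-6, and mtl-2 given below, were read on probe sets that may hybridise with other sequences. sod-3, the mitochondrial superoxide dismutase gene used as a reporter of DAF-16, read 2.97, 3.18 and 3.26 in tyrosol worms and 3.22, 3.22 and 3.25 in control worms. The groups overlapped, with a difference of -0.097 (SE 0.10). The metallothionein gene mtl-1 read 7.76, 8.43 and 7.50 in tyrosol worms and 7.88, 8.15 and 7.94 in control worms, and its difference of -0.096 (SE 0.22) became -0.36 without tyrosol replicate 2, its highest array. dod-3, a gene downstream of DAF-16, differed by 0.011 (SE 0.15), and the metallothionein gene mtl-2, the lowest of those at or above the median level, by -0.24 (SE 0.15). They differed by -0.13 and -0.40 without tyrosol replicate 2. The small heat-shock gene hsp-12.6 averaged 2.33 ± 0.045 in tyrosol worms and 2.58 ± 0.20 in control worms, a difference of -0.25 (SE 0.12) with all tyrosol values lower.

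The gene of PQM-1, which governs many genes that DAF-16 signalling lowers, had nearly equal levels. It read 5.08, 5.04 and 5.18 in tyrosol worms and 5.02, 5.08 and 5.02 in control worms on its 1 probe set. The groups overlapped and the difference was 0.058 (SE 0.088), with a 95% interval of -0.14 to 0.26 (limma adjusted p = 0.92). This was the smallest standard error among the 9 genes.

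Of 19 measured genes that DAF-16 lowers and that are tied to PQM-1, 6 lay above 0 and 13 below, with a median of -0.063. The rank product and limma called 0, and 1 was lower and 0 higher at an unadjusted limma p under 0.05. dod-24, a gene of the immune response that falls when DAF-16 is active, read 6.95, 7.14 and 7.06 in tyrosol worms and 7.32, 7.48 and 7.27 in control worms. All tyrosol values were lower, and the difference was -0.30 (SE 0.10, limma adjusted p = 0.49). The lectin gene clec-41 averaged 6.47 ± 0.29 in tyrosol worms and 6.79 ± 0.17 in control worms (difference -0.32, SE 0.16), and pept-1, an intestinal peptide transporter gene, differed by 0.069 (SE 0.11). Without tyrosol replicate 2 these were -0.49 and 0.027, the list's median was -0.16, and the rank product and limma again called 0 of its genes.

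The second DAF-16 cofactor gene, hcf-1, was governed by 1 low control array. It read 7.67, 7.65 and 7.52 in tyrosol worms and 7.50, 7.09 and 7.65 in control worms. Control replicate 2 lay below all other arrays, and without it the difference of 0.20 (SE 0.15, 1.15-fold, 95% interval 0.909 to 1.45) was 0.038. Probe set 182800_s_at read 6.83, 6.64 and 6.77 in tyrosol worms and 6.87, 6.66 and 6.84 in control worms, a difference of -0.042 (SE 0.10), or 0.012 without tyrosol replicate 2. On both arrays numbered 2 this probe set was the lowest of its group.

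For sir-2.1, the worm relative of yeast Sir2, the groups lay on top of each other. The levels were 7.20, 7.26 and 7.04 in tyrosol worms and 7.19, 7.11 and 7.24 in control worms on 1 probe set. The difference was -0.015 (SE 0.097), with a 95% interval of 0.848-fold to 1.16-fold (limma adjusted p = 0.99), and -0.061 without tyrosol replicate 2. Among 35 measured sirtuins and chromatin cofactors, 3 of them among the 9 regulators, the rank product and limma called 0. At an unadjusted limma p under 0.05, 4 were higher and 2 lower, beside 7.21% of all genes in either direction. The list had 17 genes above 0 and 18 below, with a median of -0.0021.

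Within that list set-2, the gene of a histone H3 lysine 4 methyltransferase whose loss lengthens life, varied little within the tyrosol group. It read 7.47, 7.49 and 7.48 in tyrosol worms and 7.28, 7.10 and 7.21 in control worms. The groups did not overlap, with tyrosol higher and a difference of 0.28 (SE 0.091, limma adjusted p = 0.47), and with single arrays left out it ran from 0.23 to 0.33. utx-1, a histone demethylase gene and the highest of the list, averaged 6.20 ± 0.25 in tyrosol worms and 5.72 ± 0.42 in control worms with overlapping groups (difference 0.48, SE 0.22), and without control replicate 2, its lowest array at 5.25, the difference was 0.25.

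The 2 probe sets of aak-2, the gene of a catalytic subunit of AMP-activated kinase, moved apart on tyrosol replicate 2. The main probe set read 6.66, 7.01 and 6.50 in tyrosol worms and 6.59, 6.68 and 6.46 in control worms. Tyrosol replicate 2 was the highest of the 6 arrays, the groups overlapped, and the difference was 0.15 (SE 0.14), or 1.11-fold with a 95% interval of 0.885 to 1.38 (limma adjusted p = 0.87). Probe set 190604_at read 4.55, 3.96 and 4.50 in tyrosol worms and 4.65, 4.34 and 4.79 in control worms, with tyrosol replicate 2 the lowest of the 6 arrays and a difference of -0.26 (SE 0.18). Without that array the differences were 0.0045 (SE 0.11) on the main probe set and -0.069 (SE 0.14) on the other.

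The other subunits of the kinase gave small differences of both signs. aak-1, the second catalytic subunit gene, differed by 0.10 (SE 0.11). The beta subunit genes aakb-1 and aakb-2 differed by -0.066 (SE 0.11) and -0.25 (SE 0.13), with overlapping groups. The gamma subunit gene aakg-1 read 3.03, 3.28 and 3.24 in tyrosol worms and 2.83, 2.89 and 2.99 in control worms, all tyrosol values higher, with a difference of 0.28 (SE 0.10, limma adjusted p = 0.58). aakg-2 differed by 0.057 (SE 0.086), and par-4, the gene of the kinase that activates AMP-activated kinase, by 0.24 (SE 0.13), or 0.16 without tyrosol replicate 2.

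Over the 30 measured genes of the kinase complex, its upstream kinases and the TOR pathway, aak-2 included, 16 lay above 0 and 14 below, with a median of 0.0077. The rank product and limma called 0, and 2 were higher and 0 lower at an unadjusted limma p under 0.05. The highest, flcn-1, the folliculin gene, averaged 7.77 ± 0.19 in tyrosol worms and 7.47 ± 0.088 in control worms (difference 0.30, SE 0.12), with separate groups, and differed by 0.19 without tyrosol replicate 2. The lowest, crh-1, the gene of a CREB factor under the kinase's control, averaged 3.73 ± 0.26 in tyrosol worms and 4.06 ± 0.23 in control worms (difference -0.33, SE 0.16), with overlapping groups. crtc-1, the cofactor of CRH-1, was not among the genes measured.

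For hsf-1 a single array set the sign. Its main probe set, 171962_x_at, may hybridise with other sequences and read 6.01, 5.25 and 5.83 in tyrosol worms and 5.94, 5.89 and 5.84 in control worms. Probe set 191962_s_at read 5.42, 3.82 and 5.38 in tyrosol worms and 5.35, 5.25 and 5.34 in control worms. On both, tyrosol replicate 2 lay below all other arrays and the remaining 5 lay close together. With all arrays the differences were -0.19 (SE 0.18, limma adjusted p = 0.87) and -0.44 (SE 0.38). Without tyrosol replicate 2 they were 0.029 (SE 0.10) and 0.082 (SE 0.094).

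**Figure D2:**
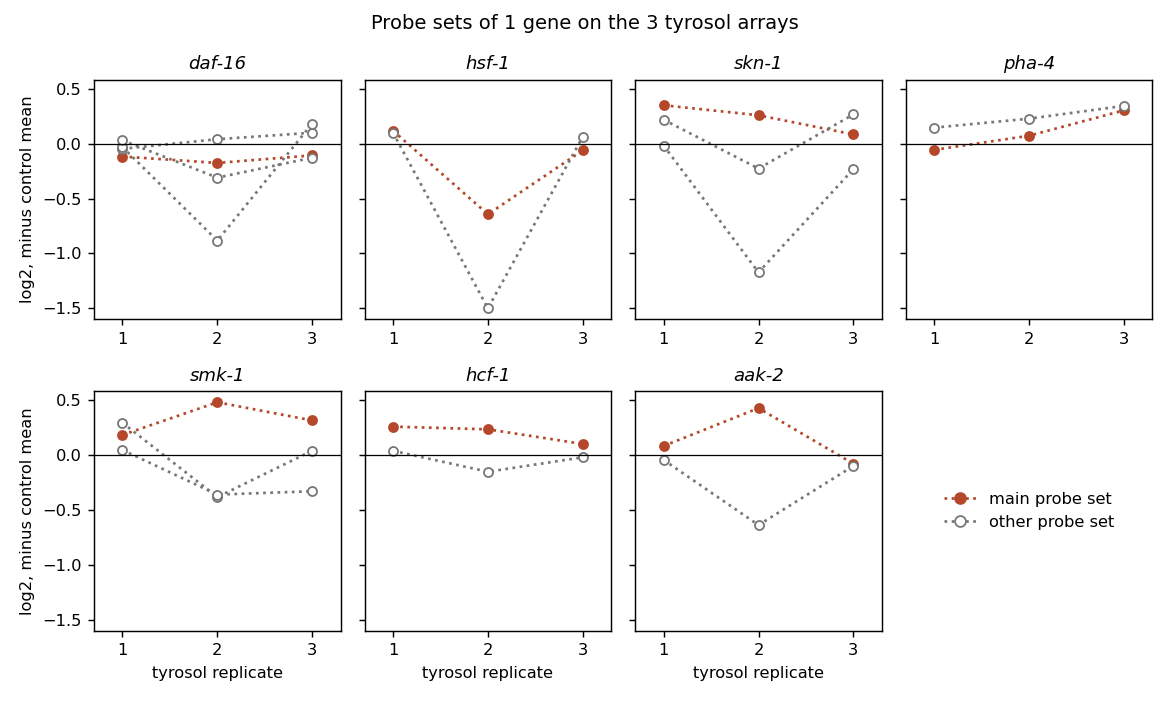
Level of each probe set on tyrosol arrays 1, 2 and 3 minus the mean of the 3 control arrays (vertical axis, log2) for the 7 genes with several probe sets; dotted lines join the readings of the same probe set and imply no order of the arrays. On tyrosol replicate 2 the probe sets of hsf-1, skn-1, daf-16, smk-1 and aak-2 spread apart, down to -1.50 for 191962_s_at of hsf-1.

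Of the 7 regulators with several probe sets, daf-16, hsf-1, skn-1, smk-1 and aak-2 had probe sets that moved apart on tyrosol replicate 2. Those of hcf-1 (0.055 and -0.16) and pha-4 (-0.051 and -0.017) stayed closer to the mean of the other tyrosol arrays. On tyrosol replicate 2, 7 of the 20 probe sets read more than 0.3 below the mean of the other tyrosol arrays and 1, the main probe set of aak-2, more than 0.3 above it. The distance between the highest and the lowest such deviation of a gene had a median of 0.91 on that array, against 0.42 and 0.56 on tyrosol arrays 1 and 3 and 0.071 to 0.30 on the control arrays. A like median was taken over 1913 genes with several probe sets at or above the median level, from those probe sets only. It was 0.36 on tyrosol replicate 2, against 0.20 and 0.24 on tyrosol arrays 1 and 3 and 0.12 to 0.19 on the control arrays. The regulators' medians also count their dim probe sets, so their size cannot be set against that of the 1913 genes. For tyrosol arrays 1 and 3 the mean subtracted includes tyrosol replicate 2. The part of the 3' excess of that array in these readings was not tested, since the files do not give the position of a probe set in its transcript.

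Around HSF-1, 13 of 13 listed regulators were measured, 3 of them among the 9 genes, with 0 called by the rank product and limma, 0 at an unadjusted limma p under 0.05, and a median of 0.082. Of these, hsb-1, whose product binds HSF-1 and holds it inactive, read 8.28, 8.37 and 8.22 in tyrosol worms and 8.14, 7.97 and 8.21 in control worms. All tyrosol values were higher, by a small margin, with a difference of 0.18 (SE 0.10, limma adjusted p = 0.77). Of 27 measured chaperone genes that HSF-1 raises, 14 lay above 0 and 13 below, with a median of 0.012. The rank product and limma called 0. At an unadjusted limma p under 0.05, 3 were higher and 0 lower, beside 7.21% of all genes in either direction. Of these 3, hsp-16.2 and hsp-16.41 are also in the list of genes that DAF-16 raises.

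Among these chaperones hsp-16.2, a small heat-shock gene nearly silent without stress, read highest relative to control. It had 4.73, 5.52 and 4.47 in tyrosol worms and 4.40, 4.16 and 4.19 in control worms. Each tyrosol array read above each control array, tyrosol replicate 2 by far, and the difference of 0.66 (SE 0.24, limma adjusted p = 0.57) was 0.35 without that array. It passed the rank product when only arrays of the same number were paired (false discovery rate 0.035) and did not pass with all pairs. The constitutive chaperone gene hsp-1 read 9.43, 8.53 and 9.29 in tyrosol worms and 9.56, 9.29 and 9.34 in control worms, a difference of -0.32 (SE 0.22) that was -0.039 without tyrosol replicate 2. hsp-110 differed by 0.21 (SE 0.22) and by -0.075 without control replicate 2, its lowest array at 7.59. The inducible hsp-70, whose mean lies below the median of all probe sets, differed by 0.13 (SE 0.27), or -0.097 without tyrosol replicate 2, and cdc-37, the gene of a partner of the chaperone HSP-90, by -0.49 (SE 0.27), or -0.13 without that array.

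The 3 probe sets of skn-1 gave differences of both signs. The main probe set read 6.34, 6.25 and 6.08 in tyrosol worms and 6.34, 5.78 and 5.86 in control worms. Control replicate 1 lay level with the highest tyrosol array, so the groups overlapped; the difference was 0.23 (SE 0.16), or 1.17-fold with a 95% interval of 0.913 to 1.51 (limma adjusted p = 0.82). Without control replicate 1 it was 0.41. Probe set 174799_at read 6.09, 5.65 and 6.14 in tyrosol worms and 6.04, 5.77 and 5.81 in control worms, a difference of 0.086 (SE 0.15), or 0.24 (SE 0.11) without tyrosol replicate 2. Probe set 188421_at, near the median of all probe sets, read 2.86, 1.71 and 2.65 in tyrosol worms and 3.00, 2.62 and 3.02 in control worms, a difference of -0.47 (SE 0.28), or -0.12 (SE 0.15) without that array.

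**Figure D3:**
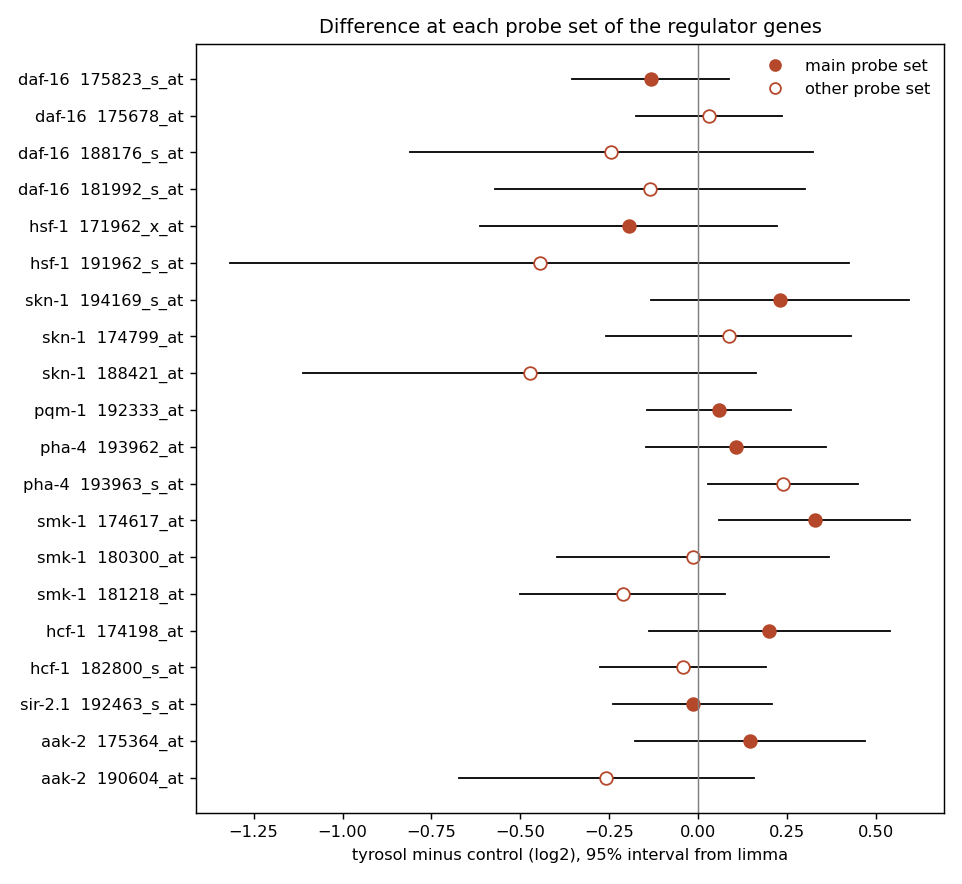
Difference between tyrosol and control worms (horizontal axis, log2) at each of the 20 probe sets of the 9 genes, with 95% intervals from limma as lines; filled points are main probe sets, and the vertical line marks 0. The intervals of 174617_at of smk-1 and 193963_s_at of pha-4 lie above 0 before any adjustment, and daf-16, skn-1, smk-1, hcf-1 and aak-2 have points on both sides.

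SKN-1 is held down by WDR-23, which brings it to a ubiquitin ligase for destruction, and is activated by a kinase cascade that includes SEK-1. wdr-23 read 6.62, 6.30 and 6.51 in tyrosol worms and 6.59, 6.59 and 6.74 in control worms, a difference of -0.16 (SE 0.11) with overlapping groups, or -0.075 without tyrosol replicate 2. sek-1 read 5.17, 5.63 and 4.94 in tyrosol worms and 4.63, 4.67 and 4.76 in control worms. The groups were separate, with a difference of 0.56 (SE 0.17, limma adjusted p = 0.39) and of 0.37 without tyrosol replicate 2. png-1, whose product processes a form of SKN-1, differed by -0.24 (SE 0.13). Of 23 measured regulators of SKN-1 the rank product and limma called 0, and the median was -0.036. At an unadjusted limma p under 0.05, 3 were higher and 0 lower, beside 7.21% of all genes in either direction.

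Detoxification genes that SKN-1 raises were read next. gst-4, the glutathione transferase gene widely used as a reporter of SKN-1, read 5.73, 5.89 and 5.77 in tyrosol worms and 5.74, 5.72 and 5.58 in control worms, a difference of 0.11 (SE 0.095) with overlapping groups, or 0.067 without tyrosol replicate 2. gcs-1, which encodes the first enzyme of glutathione synthesis, read 7.25, 7.12 and 7.31 in tyrosol worms and 7.30, 7.13 and 7.20 in control worms, a difference of 0.017 (SE 0.098), or 0.070 without that array. Among 27 measured genes of this kind 14 lay above 0 and 13 below, with a median of 0.017. The rank product and limma called 0, with 1 higher and 2 lower at an unadjusted limma p under 0.05. The highest was the glucuronosyltransferase gene ugt-11, at 3.50, 3.25 and 3.55 in tyrosol worms and 3.12, 3.22 and 2.97 in control worms (difference 0.33, SE 0.12). The lowest was the aldehyde dehydrogenase gene alh-5, at 3.45 ± 0.17 in tyrosol worms and 3.85 ± 0.17 in control worms (difference -0.40, SE 0.13), and both had separate groups. The glutathione transferase gene gst-38, named after its values were seen, differed by -0.34 (SE 0.13, limma adjusted p = 0.63) with overlapping groups.

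pha-4 was read on 2 dim probe sets, both with a mean below the median of all probe sets. The main one read 1.90, 2.03 and 2.27 in tyrosol worms and 1.98, 1.96 and 1.95 in control worms, with overlapping groups and a difference of 0.11 (SE 0.11, limma adjusted p = 0.88). Probe set 193963_s_at read 1.62, 1.70 and 1.82 in tyrosol worms and 1.45, 1.49 and 1.49 in control worms. Its groups were separate, with tyrosol higher and a difference of 0.24 (SE 0.092) that did not pass (limma adjusted p = 0.61). Over all probe sets 13.4% had separate groups, and of the 20 probe sets of the 9 genes this one and the main one of smk-1 did.

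Pharyngeal genes under PHA-4 gave differences of both signs. myo-2, a pharyngeal myosin gene, differed by -0.047 (SE 0.12), and ceh-22, a homeobox gene of pharyngeal muscle, by -0.17 (SE 0.13) at a mean of 1.22 ± 0.24 in tyrosol worms and 1.38 ± 0.088 in control worms, and both lie below the median of all probe sets. Without tyrosol replicate 2 they differed by 0.021 and -0.039. The genes myo-1, tnc-2 and phat-6, named after their values were seen, lie above that median and had separate groups with tyrosol higher. The pharyngeal myosin gene myo-1 differed by 0.46 (SE 0.14, limma adjusted p = 0.43), the troponin C gene tnc-2 by 0.34 (SE 0.12, limma adjusted p = 0.56) and phat-6 by 0.28 (SE 0.089, limma adjusted p = 0.47). With that array left out these were 0.60, 0.40 and 0.30. Among the autophagy genes that PHA-4 acts through, bec-1 differed by -0.10 (SE 0.11), or 0.0015 without tyrosol replicate 2, and unc-51, a kinase gene that starts autophagy, by -0.36 (SE 0.22), or -0.084 without that array. sqst-1, the gene of the cargo receptor p62, read 7.22, 7.67 and 7.14 in tyrosol worms and 6.82, 6.88 and 6.88 in control worms on a probe set that may hybridise with other sequences. All tyrosol values were higher, with a difference of 0.48 (SE 0.14, limma adjusted p = 0.40), or 0.32 without tyrosol replicate 2, its highest array. Of all 37 measured pharyngeal, autophagy and superoxide dismutase genes linked to PHA-4, 21 lay above 0 and 16 below, with a median of 0.016. At an unadjusted limma p under 0.05, 7 were higher and 0 lower, beside 7.21% of all genes in either direction. The rank product and limma called 0.

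**Figure D4:**
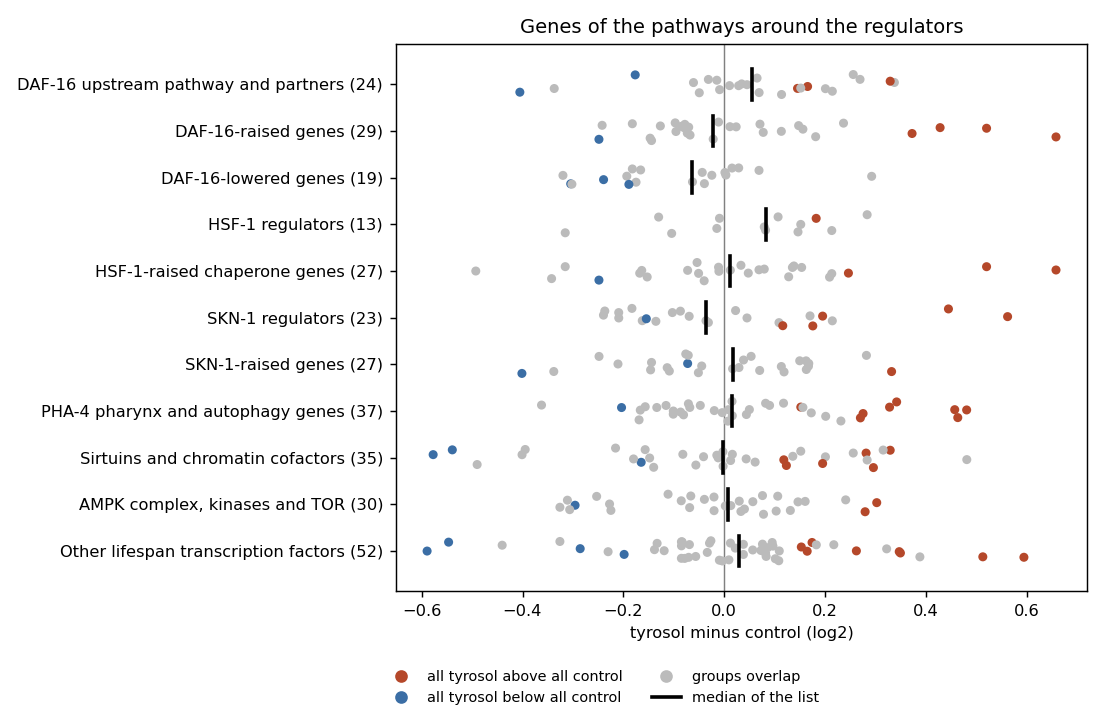
Difference between tyrosol and control worms (horizontal axis, log2) for each measured gene of the 11 pathway lists, whose sizes stand in brackets; black bars are list medians, which run from -0.063 to 0.082. Red points have all tyrosol values above all control values and blue points all below. Regulators that belong to a list are drawn and enter its median, and a gene of several lists is drawn in each. Counted once, with the 9 regulators left aside, 36 of 285 genes are red and 18 blue.

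Over the 11 pathway lists together, with the 9 regulators left aside, 285 different genes were measured, 143 of them below 0, with a median of -0.0021 against -0.017 for all genes. The rank product and limma called 0 of the 285, and 33 had an unadjusted limma p under 0.05, which is 11.6% beside 7.21% of all genes. Separate groups were seen in 36 with tyrosol higher and 18 with tyrosol lower, together 18.9% beside 13.7% of all genes. These shares are not like for like. Most genes of each list lie at or above the median level, while all genes include many dim ones, and the lists were chosen with earlier results known. The same holds for the shares given beside single lists, and whether the pathway genes exceed genes of like level was not tested. Without tyrosol replicate 2 the rank product and limma again called 0 of them.

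The list of other lifespan transcription factors held the gene nearest to the threshold. elt-6, which encodes a GATA factor, read 5.35, 5.49 and 5.42 in tyrosol worms and 4.77, 4.92 and 4.80 in control worms. All tyrosol values were higher by more than the spread within either group, and the difference was 0.59 (SE 0.092), or 1.51-fold. The limma adjusted p was 0.051, and it was 0.046 with the replicate block, where elt-6 was called. mdt-15, a Mediator subunit gene that works with SKN-1 and with fat regulators, read 4.01, 4.26 and 4.34 in tyrosol worms and 4.72, 5.09 and 4.57 in control worms. Its tyrosol values were all lower, with a difference of -0.59 (SE 0.15, limma adjusted p = 0.29). Of the 52 measured genes of this list 29 lay above 0 and 23 below, with a median of 0.030. At an unadjusted limma p under 0.05, 5 were higher and 2 lower, beside 7.21% of all genes in either direction.

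**Figure D5:**
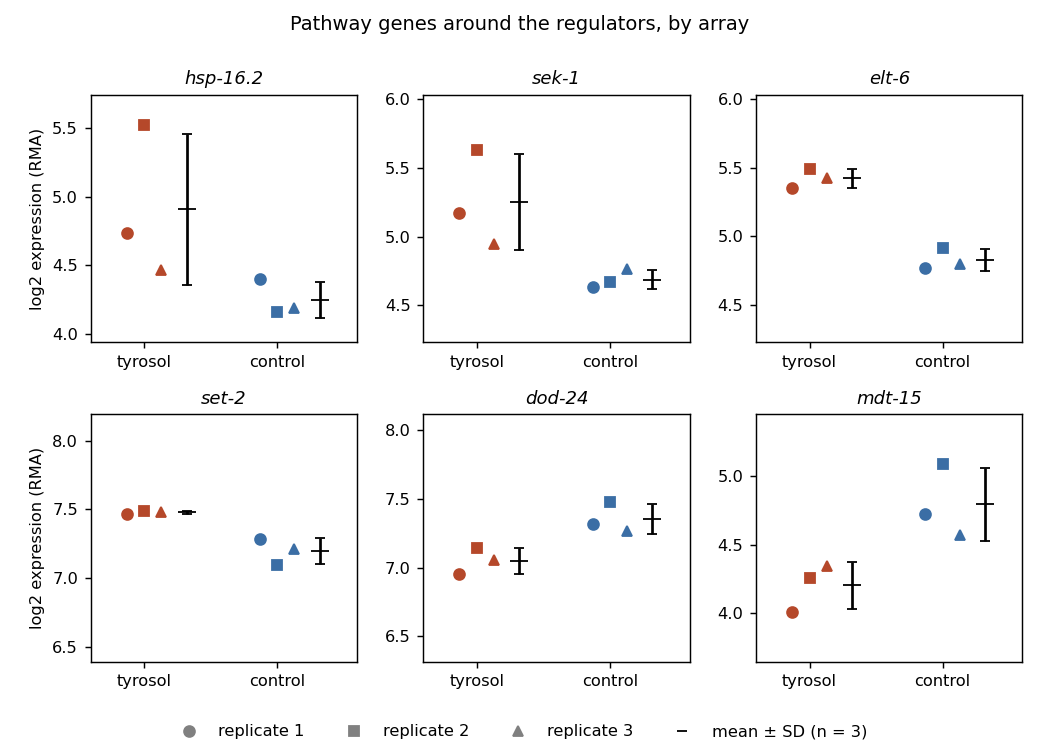
Log2 expression (vertical axis, RMA values) of 6 genes of the pathway lists on the 3 tyrosol arrays (left) and the 3 control arrays (right), with mean ± SD bars; every panel spans the same 1.8 log2 units. All 6 have separate groups: hsp-16.2 and sek-1 with 1 high tyrosol array each, elt-6 and set-2 with tight groups, dod-24 and mdt-15 lower with tyrosol. They do not stand for the lists, in which 18.9% of 285 genes had separate groups and the rank product called 0.

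The genes whose pattern over the 6 arrays was most like that of a regulator were sought among 8519 other genes at or above the median level (8520 for pha-4), by Pearson's r of the log2 values. With 6 arrays, which share their preparation, and so many genes, high values of r arise for every gene. The closest to smk-1 were cdf-1 (r = 0.993) and C06B3.6 (r = 0.991), to daf-16 elpc-2 (0.996) and ugt-4 (0.978), to skn-1 rfp-1 (0.997) and tres-1 (0.976), and to pqm-1 gid-8 (0.993) and agxt-1 (0.986). The closest to pha-4 were vab-9 (0.991) and arc-1 (0.988), to hcf-1 chd-1 (0.989) and M01E5.4 (0.988), to sir-2.1 zyg-11 (0.976) and Y55F3BR.2 (0.972), and to aak-2 ccr-4 (0.991) and C31H5.4 (0.991). hsf-1 was followed by C04G6.4 (0.997) and lin-40 (0.995). It had 182 genes with r above 0.95, against 6 to 51 for the other regulators. All 182 were lowest on tyrosol replicate 2, as were all 7 such genes of daf-16. Both regulators were themselves lowest on that array, and genes chosen for a like pattern tend to share this by the choice itself.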

How the data were processed

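Expression was measured on 6 Affymetrix arrays, 3 of tyrosol and 3 of control worms. The authors deposited log2 values made with RMA in affylmGUI, per the design text, a method that corrects background, normalises between arrays and gives 1 value per probe set. No version was given, and that the logarithm has base 2 was read from the range of the values, 0.47 to 12.53. Array medians ran from 2.57 to 2.61, and with 3 arrays a group the standard error had a median of 0.11 over all genes.

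Of 22625 probe sets, 77 manufacturer controls were left out. Names came from the platform annotation, updated through the Entrez number to RefSeq symbols (WBcel235): 20766 probe sets name 1 gene, 887 several and 895 none, and only the first kind was named. The rank product was programmed in Python 3.11.15 (numpy 2.4.6, pandas 2.3.3) with 100 permutations within arrays, and limma 3.58.1 ran in R 4.3.3, two-sided, with Benjamini-Hochberg adjustment over all 22548 probe sets. Both were tested on simulated data, in which the rank product called more unchanged probe sets than its threshold allows when spreads differed between probe sets.

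The 9 genes and the lists were chosen with earlier results of these data known. The gene mtl-2, at first in both DAF-16 lists, was taken out of the lowered list after the data were seen, and no call changed. Named genes are the 9, fixed reporters, any called list gene, and the highest and lowest gene of each list at or above the median level. Deviations of same-numbered arrays correlated, with r = 0.11, 0.37 and 0.26 for numbers 1, 2 and 3. Other pairs had r of -0.37 to 0.28, with tyrosol 1 closer to control 3 than to control 1. Deviations within a group depend on each other, so these r values are not independent. The labels do not say what a number shares. The main tests, with their standard errors and intervals, left the arrays unpaired, and a replicate block was run beside them. With that replicate block limma called 163 probe sets in place of 76. Alternatives covered the test, the pairing, the seed, left-out arrays, a filter on dim probe sets, scaling, the variance model, array weights, a poly-A covariate and the choice of probe set. Sequences were not used here.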

Additional observations from a re-analysis of the deposited data

How the results depend on the processing

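None of the 9 genes was called under any alternative run, and the lowest value over these was a rank product false discovery rate of 0.44, for smk-1 without control replicate 1. The sign of 7 of them was not stable. Other probe sets turned the sign of daf-16 (0.032, also the value without shared or cross-hybridising probe sets), skn-1 (-0.47), smk-1 (-0.014 and -0.21), hcf-1 (-0.042) and aak-2 (-0.26), and averaging the probe sets of a gene turned that of skn-1 (-0.052) and aak-2 (-0.056). Without both arrays numbered 2, hsf-1 differed by 0.028, and with quantile normalisation repeated sir-2.1 differed by 0.0075; the cause was not tested. With single arrays left out, hsf-1 ran from -0.35 to 0.029 and sir-2.1 from -0.061 to 0.048 (0.016 without control replicate 3), while daf-16 (-0.19 to -0.074), skn-1 (0.12 to 0.41), pqm-1 (0.018 to 0.087), pha-4 (0.0083 to 0.19), smk-1 (0.25 to 0.41), hcf-1 (0.038 to 0.32) and aak-2 (0.0045 to 0.26) kept their signs. The filter on dim probe sets removed pha-4.

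Over all probe sets the rank product called 215, and 103 without both arrays numbered 2; limma called 76, and 87 with an intensity trend. Without single arrays the rank product called 101 (without tyrosol replicate 3) to 213, with 140 without tyrosol replicate 2 and 52.6% of the 215 without tyrosol replicate 1. Limma then called 0 to 84, with 62 without tyrosol replicate 2 and 0 without tyrosol replicate 1 or 3 or control replicate 1 or 3, where 1707, 1581, 1281 and 1228 probe sets had an unadjusted p under 0.05. Among the 285 pathway genes, counted so after the data were seen, the replicate block gave 2 in the rank product (elt-6 and hsp-16.2) and 1 in limma (elt-6), array weights 2 (elt-6 and zip-2) and the poly-A covariate 2 (elt-6 and tir-1). The replicate block changed no other call among the 9 genes and the pathway lists. Dim probe sets, those of pha-4 among them, lie where a change is hard to see.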

Other observations

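The tissues of the worm were followed by marker lists. Most called genes of these lists were sperm genes: of 36 measured, the rank product called 23 higher and 0 lower and limma called 8, and averaged over the list they stood at 0.98, 0.92 and 1.01 above the mean of the control arrays (log2) in tyrosol worms, against -0.24, 0.38 and -0.14 in control worms. Of these 36 genes 25 were read on probe sets that may hybridise with other sequences. Among them were all of the 23 called higher except ssp-16, most of them genes of the msp family, so these calls may not be separate readings. In the epidermis list the rank product called 4 of 30 genes higher and limma 1, while 16 lay above 0 and 14 below. In a list of zygotic embryo genes 12 lay above 0 and 13 below, and limma called 0. The rank product called 1 of these 25 higher, the protease gene hch-1, at 5.11 ± 0.18 in tyrosol worms and 4.00 ± 0.39 in control worms (SD, n = 3 each). Without tyrosol replicate 2 the rank product called 1 gene higher and 1 lower in the epidermis list, and the same in the embryo list. The part of these tissues in the values of the regulators was not tested.

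Body wall muscle had no called gene by the rank product or limma. Of its 31 genes 14 had all tyrosol values above all control values and 1 all below, beside 6.92% and 6.78% of all genes. At an unadjusted limma p under 0.05, 9 were higher and 0 lower, beside 7.21% of all genes in either direction. Of the 31, 27 lie at or above the median level, while all genes include many dim ones. Probe sets that may hybridise with other sequences read 6 of the 31. The list's mean level relative to control was 0.15, 0.058 and 0.13 in tyrosol worms and -0.010, 0.014 and -0.0037 in control worms. Oocyte and germ line genes stood at -0.014, -0.32 and -0.0034 in tyrosol worms and at 0.028, -0.043 and 0.015 in control worms, so that their low mean came from tyrosol replicate 2. Intestinal genes stood at -0.047, 0.034 and -0.073 in tyrosol worms and at 0.0073, 0.013 and -0.020 in control worms, and neuronal genes had a median difference of 0.0050; 0 genes of these 3 lists were called by the rank product or limma, with 1, 4 and 4 at an unadjusted limma p under 0.05.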
